A study of Rattus norvegicus with 24 samples.

Results

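Glutamate receptors and the scaffold proteins beneath them were followed in RNA of hippocampal area CA1, in aged rats with and without a deficit of spatial learning and in young rats. The set comprised 37 genes chosen by name and function: AMPA, NMDA, kainate and metabotropic receptor genes and members of the PSD-95, GKAP, Shank, neuroligin and Homer families. Each gene was represented by its brightest probe set carrying that symbol alone, kept when its log2 signal exceeded 4 in at least 6 of the 23 arrays. Of the 37 genes, 29 passed, among 9076 genes that passed in all.

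The rats were male Long-Evans, without treatment and housed singly. The first group was aged impaired (24 to 26 months, 8 arrays), the second aged unimpaired (24 to 26 months, 6 arrays) and the third young (6 months, 9 arrays). The aged groups were separated by a learning index from the Morris water maze, a pool in which rats must find a hidden platform: unimpaired rats scored as the young did, and impaired rats scored worse. Each array was labelled as a separate biological replicate of total RNA from the dissected CA1 field, so every cell type of that tissue contributed.

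Glutamate released at an excitatory synapse opens AMPA receptors, which carry most of the fast current, and NMDA receptors, whose calcium entry starts the lasting changes of synaptic strength on which spatial learning in CA1 depends. Kainate and metabotropic receptors adjust release and excitability. In the postsynaptic density, proteins of the PSD-95 family hold the receptors, and GKAP proteins link that layer to Shank. Homer joins Shank to group I metabotropic receptors, and neuroligins bind neurexins across the cleft.

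The 23 arrays were alike in scale, with median log2 signals between 4.20 and 4.28. The log2 gap between 3 prime and 5 prime control probe sets of Gapdh, a sign of RNA quality, was 0.290 to 0.376 in impaired, 0.298 to 0.373 in unimpaired and 0.260 to 0.361 in young arrays. For beta-actin it was 2.13 to 2.33, 2.13 to 2.32 and 2.12 to 2.34 in the same groups, and for hexokinase 0.913 to 1.89, 1.497 to 1.81 and 1.26 to 2.05. Markers of CA1 pyramidal cells were present on every array (8 of 12 listed markers measured, mean log2 signal per array 10.84 to 11.14 in impaired, 11.03 to 11.24 in unimpaired and 10.80 to 11.22 in young rats). Their group averages were 10.97 ± 0.12 (SD, n = 8) in impaired, 11.13 ± 0.08 (n = 6) in unimpaired and 11.07 ± 0.15 (n = 9) in young rats. In impaired minus unimpaired 7 of the 8 markers lay below 0, with a median of -0.14 and 0 called. Of the 8, 4 reached an unadjusted limma p under 0.05 there, beside 6.93% of all genes, and the smallest adjusted p was 0.562. In impaired minus young 7 of the 8 also lay below 0, with a median of -0.10. At that unadjusted level stood 2 of them, beside 16.5% of all genes. Among markers of other cells, 5 of 10 for microglia and 2 of 12 for astrocytes rose in aged against young rats, 2 of 8 for endothelial cells fell, and 0 of 12 for interneurons and 0 of 5 for dentate granule cells were called. Of 9 oligodendrocyte markers 0 were called. In impaired minus unimpaired 8 of those 9 lay above 0, with a median of 0.12, and 3 reached an unadjusted limma p under 0.05. The 1 measured marker of choroid plexus and ependyma ran from 6.30 to 9.50 in impaired, 4.74 to 7.79 in unimpaired and 5.69 to 9.50 in young rats. Only 5 of 12 listed dentate markers were measured. In impaired minus unimpaired 3 of the 5 lay above 0 and 2 below, with a median of 0.26 (range -0.21 to 0.67). There 3 of the 5 reached an unadjusted limma p under 0.05, beside 6.93% of all genes, and the smallest adjusted p was 0.632. In bulk tissue, fewer cells of a type and less RNA per cell cannot be told apart.

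None of the 29 measured receptor and scaffold genes passed the test in any of the 4 comparisons (limma, adjusted p under 0.05 by Benjamini-Hochberg over all 9076 genes). Across all genes the share called was 3.71% in aged against young rats and 3.8% in impaired against young rats. It was 0.76% in unimpaired against young rats, and 0% between the impaired and unimpaired groups. At an unadjusted p under 0.05, the members numbered 2 in aged against young (Dlgap4 and Shank2), where 15.3% of all genes reached that level. They numbered 6 in impaired against young (Gria1, Grin2a, Grin2c, Dlgap1, Dlgap4 and Shank2), beside 16.5% of all genes. There were 0 in unimpaired against young, beside 9.84%, and 5 in impaired against unimpaired (Gria1, Grin2a, Dlg3, Dlgap1 and Homer3), beside 6.93%. All comparisons against young rats share the 9 young arrays, and both comparisons of the impaired group share its 8 arrays.

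The members' median log2 difference was -0.03 in aged minus young, where the median of all genes was 0.01, and -0.03 in impaired minus young, where that of all genes was 0.01. It was 0.01 in unimpaired minus young (0.02 for all genes) and -0.02 in impaired minus unimpaired (-0.01 for all genes). Members below 0 numbered 18, 18, 14 and 16 of 29 in these 4 comparisons (62.1%, 62.1%, 48.3% and 55.2%), beside 43.9%, 46.4%, 41.7% and 52.6% of all genes. The median size of a difference, whatever its sign, was 0.0777 for the members and 0.0524 for all genes in aged against young, and 0.115 and 0.0636 in impaired against young. It was 0.0586 and 0.0556 in unimpaired against young, and 0.0739 and 0.0555 in impaired against unimpaired. The 95% interval of the difference lay within a 1.5-fold change either way for 28 of 29 members in aged against young, where Grm5 was the exception. It did so for 27 in impaired against young (all but Grin2a and Grm5), 26 in unimpaired against young (all but Dlg2, Grm5 and Grm7) and 25 in impaired against unimpaired (all but Grin2a, Grm5, Grm7 and Homer3). Within 1.2-fold the intervals of 18, 16, 15 and 13 members lay in the same 4 comparisons. No member had groups without overlap in any comparison, a pattern found in 0.176%, 0.496%, 0.771% and 0.165% of all genes.

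**Figure D1:**
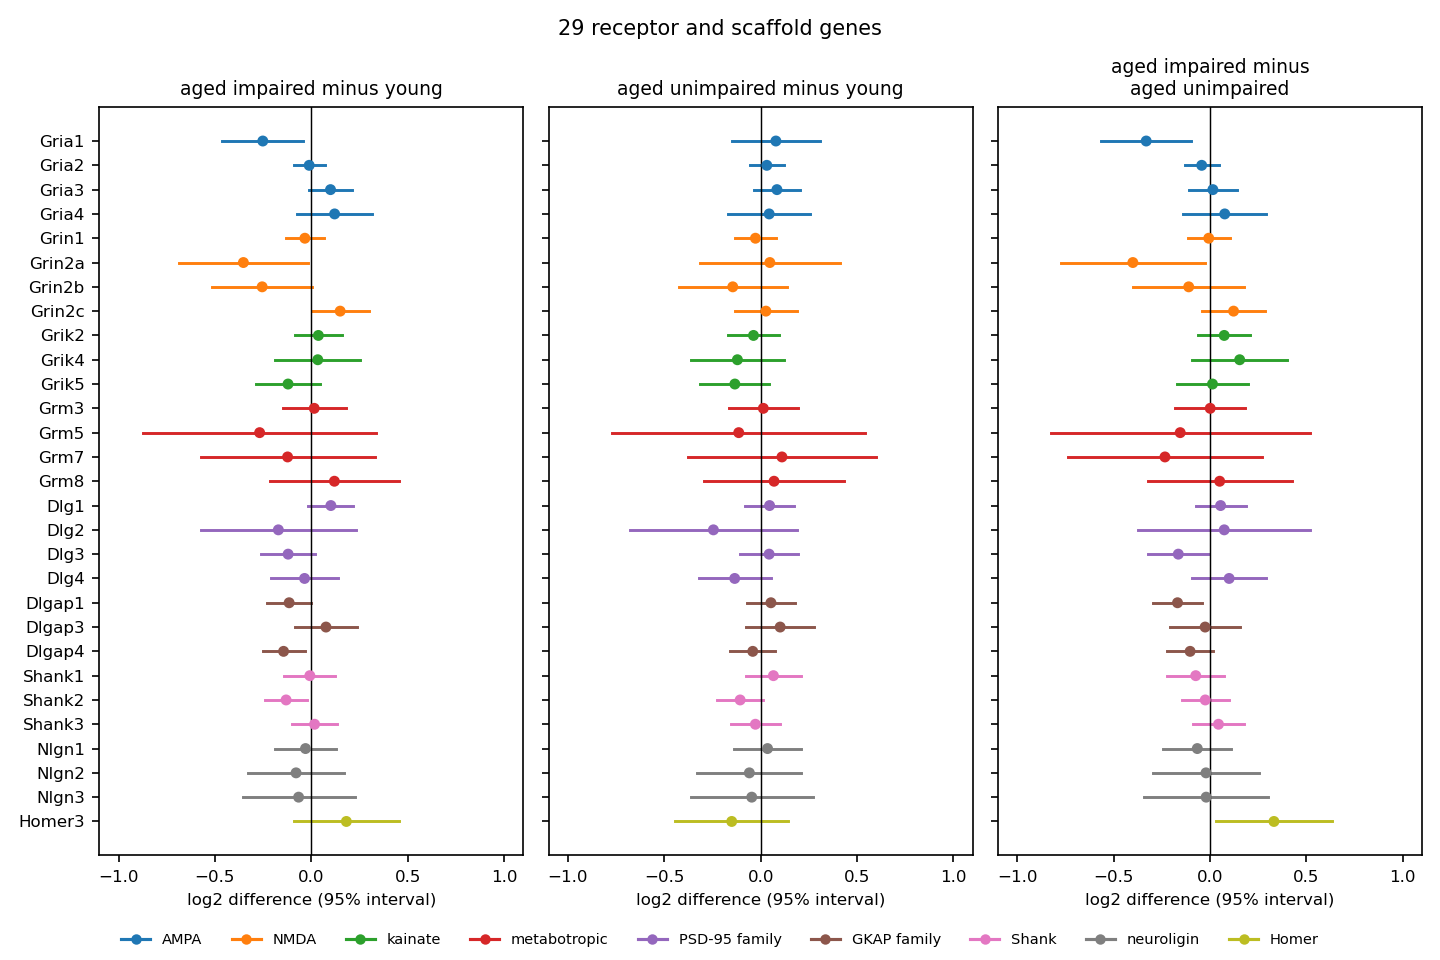
Log2 differences of the 29 measured receptor and scaffold genes (points) with 95% intervals (lines), coloured by family, in impaired minus young, unimpaired minus young and impaired minus unimpaired rats. Most intervals include 0, and the widest belong to Grm5, Grm7, Dlg2, Grm8 and Grin2a.

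The 8 members left out as too dim were the NMDA subunits Grin2d and Grin3a, the kainate subunits Grik1 and Grik3, the metabotropic receptors Grm2 and Grm4, and the scaffolds Dlgap2 and Homer2. Their brightest probe sets had mean log2 signals of 1.87 (Grik3) to 3.87 (Grik1). Nearest to the threshold on the inner side were Dlg2, over 4 in 18 arrays with a mean of 4.42, and Grm7, over 4 in 21 arrays with a mean of 4.74. On the outer side stood Grm2, over 4 in 2 arrays with a mean of 3.39, and Grin2d, over 4 in 1 array with a mean of 3.06. A dim probe set gives no bound on the RNA itself, since probes differ in how well they bind.

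All 4 AMPA receptor subunits, which assemble in fours into the channel, were measured. Gria1 encodes GluA1, the subunit whose addition to synapses accompanies long-term potentiation in CA1. Its log2 signal had a lowest, median and highest value of 11.43, 11.63 and 11.98 in impaired rats, 11.76, 12.00 and 12.33 in unimpaired rats, and 11.41, 12.03 and 12.15 in young rats. Of the 8 impaired arrays, 6 lay below the whole unimpaired range, while 0 lay outside the young range, whose lowest array (young replicate 6) was below them all. The difference was -0.33 ± 0.11 (SE) in impaired minus unimpaired, with a limma adjusted p of 0.562 by Benjamini-Hochberg, and -0.25 ± 0.10 in impaired minus young, with an adjusted p of 0.203. With the mean of the CA1 pyramidal markers as a covariate these became -0.28 ± 0.13 and -0.22 ± 0.11. Gria1 is represented by 1 probe set, so no second measurement of it was at hand.

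Gria2, whose edited subunit makes the channel impermeable to calcium, had one of the narrowest spreads. Its arrays lay at 13.09, 13.25 and 13.33 in impaired, 13.19, 13.27 and 13.36 in unimpaired and 13.08, 13.25 and 13.31 in young rats. The SD pooled over groups was 0.0706, and 5.7% of all genes had a smaller one. The difference in aged minus young was 0.01 ± 0.03, with a 95% interval from -0.06 to 0.08. A second Gria2 probe set, at an aged mean of 12.91, had the opposite sign in aged minus young. Of its 14 aged arrays, 11 lay below the young mean, 4 below the young range and 1 above that range. On that set 6 of 8 impaired arrays lay below the unimpaired range and 0 above it. Gria3 stood at 11.90, 12.04 and 12.24 in impaired, 11.97, 12.00 and 12.21 in unimpaired and 11.72, 11.99 and 12.07 in young rats, and 4 of 14 aged arrays exceeded the young range. In aged minus young it gave 0.09 ± 0.05, with a limma adjusted p of 0.356. In impaired minus young it gave 0.10 ± 0.05, and 0.16 ± 0.04 with the CA1 pyramidal marker mean as a covariate, with a limma adjusted p of 0.0516. A second, dimmer Gria3 probe set had the opposite sign in impaired minus young. It lay at 8.70, 8.99 and 9.68 in impaired, 9.27, 9.41 and 9.70 in unimpaired and 8.79, 9.37 and 9.65 in young rats, and gave -0.18 ± 0.13 in impaired minus young and -0.32 ± 0.14 in impaired minus unimpaired, with limma adjusted p of 0.539 and 0.703 over probe sets. Gria4 gave 0.09 ± 0.08 in aged minus young, with a limma adjusted p of 0.695, and its groups overlapped.

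**Figure D2:**
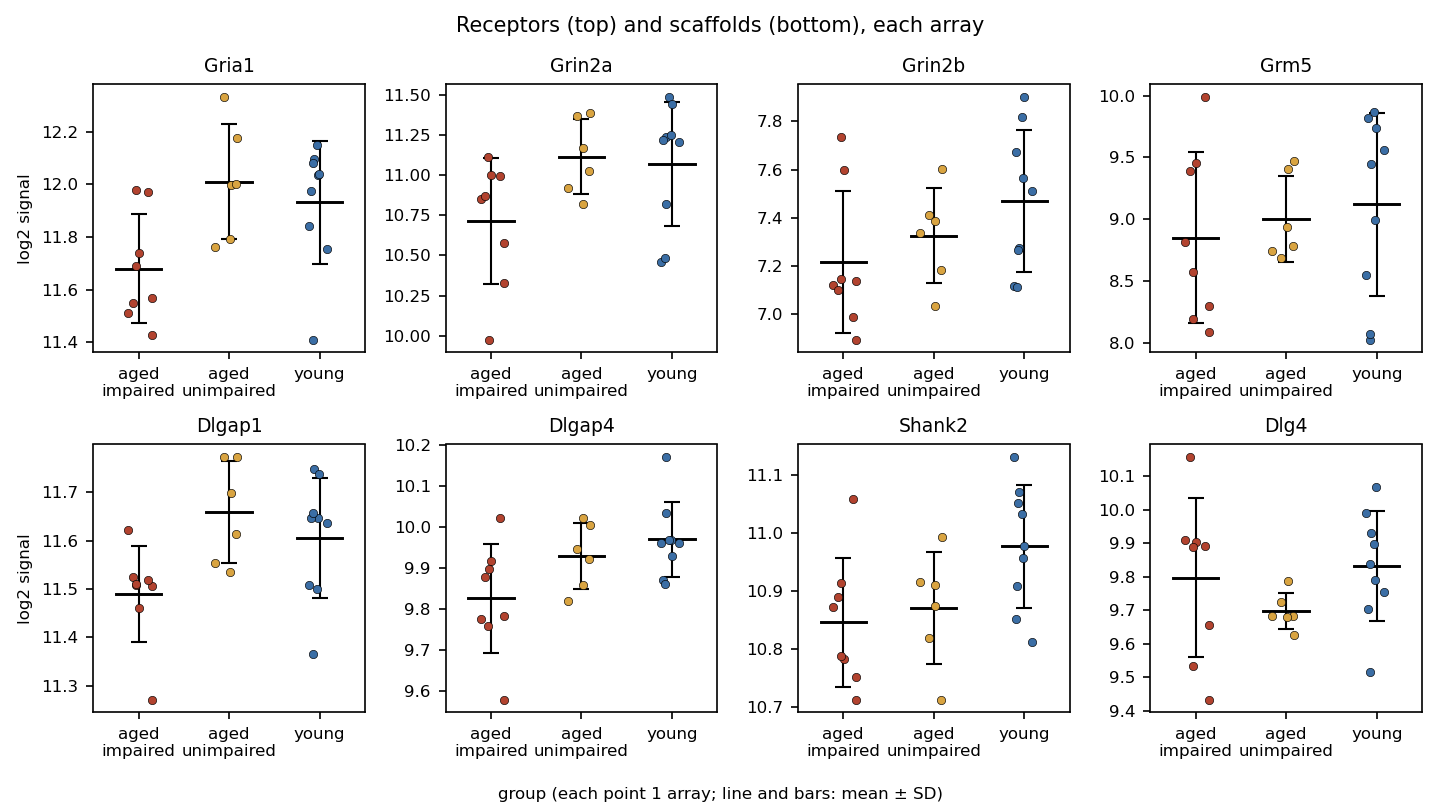
Log2 signal (y axis) of Gria1, Grin2a, Grin2b and Grm5 (top) and of Dlgap1, Dlgap4, Shank2 and Dlg4 (bottom) on each array, by group (x axis), where horizontal lines are group means and bars are SD (8 impaired, 6 unimpaired and 9 young arrays). In Gria1, 6 of 8 impaired arrays lie below the unimpaired range, in Dlgap1 7 of 8 do, and Grm5 spreads widely within each group.

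Among the NMDA receptor genes, Grin1 encodes the subunit that every such receptor contains, and the Grin2 subunits set its kinetics. Grin1 lay at 10.28, 10.46 and 10.51 (lowest, median and highest log2 signal) in impaired, 10.27, 10.42 and 10.56 in unimpaired and 10.33, 10.47 and 10.63 in young rats. The groups overlapped, and the 95% interval in aged minus young ran from -0.12 to 0.05. A second, dimmer Grin1 probe set lay on the other side of 0, at 7.16, 7.61 and 8.05 in impaired, 7.08, 7.53 and 7.70 in unimpaired and 7.16, 7.44 and 7.69 in young rats. It gave 0.13 ± 0.09 in aged minus young and 0.21 ± 0.10 in impaired minus young, with limma adjusted p of 0.554 and 0.321 over probe sets. Grin2a, the subunit that prevails in the adult forebrain, lay at 9.97, 10.86 and 11.11 in impaired, 10.82, 11.10 and 11.39 in unimpaired and 10.46, 11.22 and 11.49 in young rats. All 8 impaired arrays were below the unimpaired mean and 3 were below the unimpaired range, while the young arrays reached down to 10.46. Its difference was -0.40 ± 0.18 in impaired minus unimpaired and -0.35 ± 0.16 in impaired minus young, with limma adjusted p of 0.681 and 0.275 by Benjamini-Hochberg. A second Grin2a probe set, fitted over the 12193 probe sets, gave -0.71 ± 0.29 and -0.73 ± 0.26, with limma adjusted p of 0.668 and 0.153.

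Grin2b, the subunit that predominates early in life and slows the current, lay at 6.89, 7.13 and 7.73 in impaired, 7.03, 7.36 and 7.60 in unimpaired and 7.11, 7.51 and 7.90 in young rats. Of the 14 aged arrays, 4 lay below the young range. The difference in aged minus young was -0.21 ± 0.11, with a limma adjusted p of 0.384 and a 95% interval from -0.44 to 0.02. Grin2c, a subunit best known from the cerebellum and from astrocytes, stood at 9.88, 9.96 and 10.36 in impaired, 9.68, 9.90 and 10.05 in unimpaired and 9.66, 9.79 and 10.16 in young rats. In impaired minus young it gave 0.15 ± 0.07 with a limma adjusted p of 0.298, and the difference was 0.10 without impaired replicate 6, which stood apart from its group.

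Of the kainate receptor genes, Grik2 forms channels by itself, whereas Grik4 and Grik5 encode high-affinity subunits that need a partner. Grik2 lay at 8.04, 8.07 and 8.25 in impaired, 7.95, 8.06 and 8.08 in unimpaired and 7.74, 8.08 and 8.39 in young rats. The young arrays enclosed both aged groups. Grik5 lay at 8.65, 8.73 and 9.10 in impaired, 8.52, 8.84 and 8.97 in unimpaired and 8.59, 8.91 and 9.08 in young rats. Its difference in aged minus young was -0.13 ± 0.07, with a limma adjusted p of 0.415. Grik4 is described with Homer3, with which it shared its highest arrays.

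Of the 4 metabotropic receptors measured, Grm5, Grm7 and Grm8 varied widely from array to array. Grm5, the group I receptor that couples to calcium release and binds Homer, lay at 8.09, 8.69 and 9.99 in impaired, 8.68, 8.86 and 9.47 in unimpaired and 8.02, 9.45 and 9.86 in young rats. Its pooled SD of 0.646 exceeded that of 99.5% of all genes, and its difference in impaired minus young of -0.27 ± 0.29 had a 95% interval from -0.87 to 0.34. The 6 arrays lowest for Grm5 were the same 6 that were lowest for Grin2a, namely impaired replicates 2, 4 and 6 and young replicates 3, 6 and 8. Of the 6 arrays lowest for Grin2a, 4 were also among the 6 lowest for Gria1. Among their 6 highest arrays, Grm5 and Grin2b shared 4, and Grin2a and Grin2b shared 3. These pairs were picked, and the overlap in other pairs across all genes was not counted. These pairs of genes come from the same arrays and share any deviation of an array, and the part of dissection, RNA quality or probe behaviour in the overlap was not tested.

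Grm3, a group II receptor found on neurons and astrocytes, had 10.85, 11.19 and 11.48 in impaired, 11.04, 11.12 and 11.30 in unimpaired and 10.94, 11.12 and 11.32 in young rats. Its means were 11.15, 11.15 and 11.14 in these groups, and the 95% interval in aged minus young ran from -0.13 to 0.16. Grm7 and Grm8 encode group III receptors that restrain release from presynaptic terminals. Grm7 lay at 3.56, 4.79 and 5.34 in impaired, 4.46, 4.85 and 5.18 in unimpaired and 3.48, 4.99 and 5.23 in young rats, and 2 arrays fell under the log2 signal of 4. Its pooled SD of 0.481 exceeded that of 98.6% of all genes, and for Grm8 the share was 96.2%. Neither passed the test in any comparison, and the smallest limma adjusted p of the 2 genes was 0.79 for Grm8 and 0.85 for Grm7 in impaired against young.

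The 4 genes of the PSD-95 family encode membrane-associated guanylate kinases that bind NMDA receptors and, through partners, AMPA receptors. Dlg4, which encodes PSD-95 itself, lay at 9.43, 9.89 and 10.16 in impaired, 9.63, 9.68 and 9.79 in unimpaired and 9.52, 9.84 and 10.07 in young rats. The 6 unimpaired arrays were close together and all below the young mean, while the impaired arrays spread on both sides of them. The differences were -0.13 ± 0.09 in unimpaired minus young and -0.04 ± 0.08 in impaired minus young, with limma adjusted p of 0.698 and 0.89. In impaired minus unimpaired Dlg4 gave 0.10 ± 0.09, and 0.21 ± 0.09 with the CA1 pyramidal marker mean as a covariate, with a limma adjusted p of 0.913. The 3 Dlg4 probe sets that passed differed in sign there, and the difference turned negative for the mean of the gene's probe sets. Dlg1, which encodes SAP97, lay at 10.002, 10.08 and 10.38 in impaired, 9.88, 10.05 and 10.25 in unimpaired and 9.88, 10.05 and 10.12 in young rats. It gave 0.08 ± 0.05 in aged minus young, with a limma adjusted p of 0.499, and 5 of 14 aged arrays exceeded the young range. Dlg2, near the detection threshold, gave -0.20 ± 0.17, with an adjusted p of 0.646.

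Dlg3, which encodes SAP102 and carries NMDA receptors through the secretory pathway, had 4 probe sets that passed. The brightest lay at 9.46, 9.84 and 10.05 in impaired, 9.85, 10.03 and 10.15 in unimpaired and 9.85, 9.97 and 10.11 in young rats, and 4 of 8 impaired arrays fell below the unimpaired range. In impaired minus unimpaired the difference was -0.16 ± 0.08, with a limma adjusted p of 0.681. It was -0.11 without impaired replicate 7, -0.06 for the mean of the gene's probe sets, and -0.09 ± 0.08 with the CA1 pyramidal marker mean as a covariate. The dimmer set whose identifier ends in s_at fell with age. It lay at 6.10, 6.55 and 7.02 in impaired, 6.32, 6.61 and 6.73 in unimpaired and 6.70, 6.86 and 7.17 in young rats, so that 10 of 14 aged arrays were below the young range and 13 of 14 were below the young mean. Its difference in aged minus young was -0.35 ± 0.08, with a limma adjusted p of 0.0234 by Benjamini-Hochberg over 12193 probe sets, of which 2.58% were called (0.426% as lower).

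It was the only one of 51 probe sets of the members called in any comparison, and it is named here after its values were seen. In impaired minus young it gave -0.35 ± 0.10 with an adjusted p of 0.0502, in unimpaired minus young -0.35 ± 0.10 with 0.174, and in impaired minus unimpaired -0.00 ± 0.11 with 0.998 (limma, over the probe sets). Its call was lost without young replicate 2, 5 or 9 (limma adjusted p of 0.0514, 0.0526 and 0.053) and in the fit with a replicate block (adjusted p of 0.132). The other dim probe sets gave -0.14 ± 0.09 and -0.20 ± 0.15 in aged minus young, with limma adjusted p of 0.527 and 0.62. By the array maker's naming, the suffix s marks a probe set whose probes can match more than one transcript. Which transcripts each set reports, of Dlg3 or of another gene, was not tested.

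**Figure D3:**
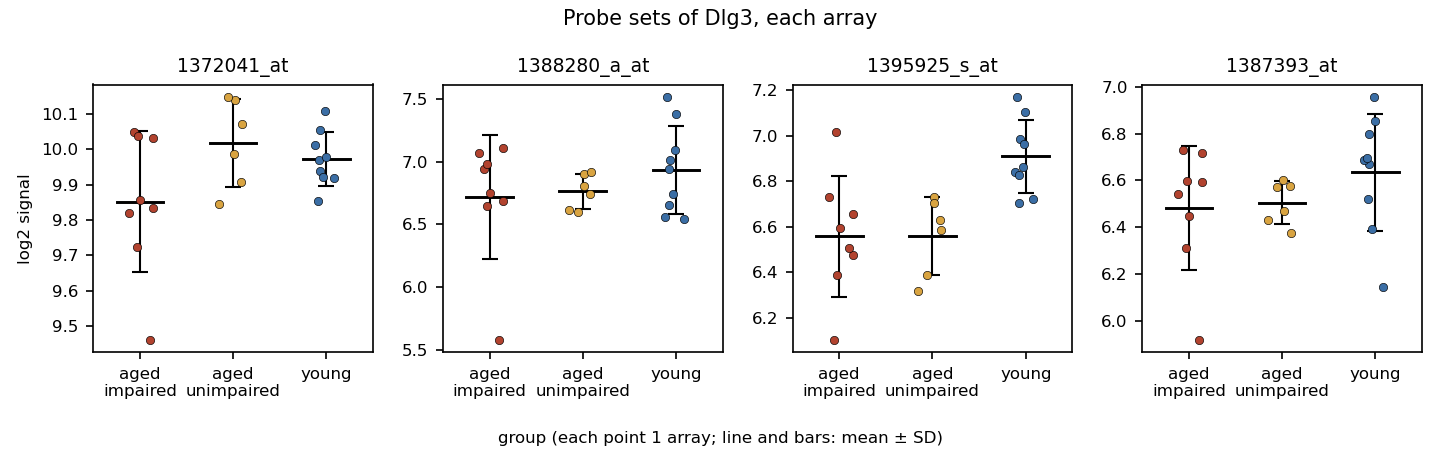
Log2 signal (y axis) of the 4 Dlg3 probe sets on each array, by group (x axis), from the brightest to the dimmest, with group means (lines) and SD (bars). In the third panel, the set that fell with age, 10 of 14 aged arrays lie below the young range, and in the brightest set the unimpaired and young arrays overlap.

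GKAP proteins bind the guanylate kinase domain of PSD-95 and pass the link on to Shank. Dlgap1 lay at 11.27, 11.51 and 11.62 in impaired, 11.54, 11.66 and 11.77 in unimpaired and 11.37, 11.65 and 11.75 in young rats. Of the 8 impaired arrays, 7 were below the whole unimpaired range and 1 was below the young range. The difference was -0.17 ± 0.06 in impaired minus unimpaired, with a limma adjusted p of 0.619, and -0.12 ± 0.05 in impaired minus young, with an adjusted p of 0.292. With the CA1 pyramidal marker mean as a covariate these became -0.08 ± 0.06 and -0.06 ± 0.05. The probe sets of Dlgap1 differed in sign in both comparisons.

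Dlgap4 lay at 9.58, 9.83 and 10.02 in impaired, 9.82, 9.94 and 10.02 in unimpaired and 9.86, 9.96 and 10.17 in young rats, and 6 of 14 aged arrays were below the young range. Its difference in impaired minus young, -0.14 ± 0.05, had the smallest limma adjusted p of any member in that comparison (0.148), and in aged minus young it was -0.10 ± 0.05 (0.293). Dlgap3 gave 0.09 ± 0.07 in aged minus young, with an adjusted p of 0.626. The family was thus small in its differences, the largest being a fold of 0.890 for Dlgap1 in impaired against unimpaired rats.

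Shank proteins form the deep layer of the postsynaptic density. Shank2 lay at 10.71, 10.83 and 11.06 in impaired, 10.71, 10.89 and 10.99 in unimpaired and 10.81, 10.98 and 11.13 in young rats. In aged minus young it gave -0.12 ± 0.05, the smallest limma adjusted p of the members there (0.182), and 5 of 14 aged arrays were below the young range. Shank1 lay at 12.91, 13.05 and 13.39 in impaired, 12.98, 13.19 and 13.21 in unimpaired and 12.81, 13.11 and 13.25 in young rats, with a difference of 0.02 ± 0.06 in aged minus young. Its second, dim probe set gave 0.29 ± 0.11, with a limma adjusted p of 0.169 over probe sets. Shank3 gave -0.00 ± 0.05, with a 95% interval from -0.11 to 0.10.

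Neuroligins are postsynaptic adhesion proteins that bind neurexins, Nlgn1 at excitatory synapses, Nlgn2 at inhibitory synapses and Nlgn3 at both. Nlgn1 lay at 8.53, 8.91 and 9.05 in impaired, 8.76, 8.89 and 9.05 in unimpaired and 8.54, 8.86 and 9.13 in young rats. Nlgn2 lay at 6.86, 7.64 and 8.10 in impaired, 7.43, 7.62 and 7.77 in unimpaired and 7.45, 7.63 and 7.99 in young rats. The medians of each gene differed little beside the ranges. In aged minus young the differences were -0.00 ± 0.07 for Nlgn1, -0.07 ± 0.11 for Nlgn2 and -0.06 ± 0.12 for Nlgn3, with limma adjusted p of 0.993, 0.833 and 0.893. A second, dim Nlgn2 probe set had the opposite sign, 0.15 ± 0.12, with a limma adjusted p of 0.649 over probe sets.

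Homer3, a long-form adaptor between Shank and group I receptors, and Grik4, a kainate subunit known to be enriched in CA3 pyramidal cells, had their highest signals on the same arrays. A promoter entry of each is shown because these 2 genes peaked on the same arrays. The entries were taken from a set of RefSeq promoters (GRCr8), and that set held an entry for 24 of the 37 members. Each spans 250 bases before and 50 after the start of its entry, 5′ to 3′. E boxes (CANNTG, which reads alike on both strands) are in capitals. A gene on the minus strand begins at its higher coordinate. Both windows lie inside their genes, which reach to 19176701 (Homer3) and 52228751 (Grik4). The sequence before the outermost start is therefore not shown.
Homer3, chr16:19174549-19174848, minus strand: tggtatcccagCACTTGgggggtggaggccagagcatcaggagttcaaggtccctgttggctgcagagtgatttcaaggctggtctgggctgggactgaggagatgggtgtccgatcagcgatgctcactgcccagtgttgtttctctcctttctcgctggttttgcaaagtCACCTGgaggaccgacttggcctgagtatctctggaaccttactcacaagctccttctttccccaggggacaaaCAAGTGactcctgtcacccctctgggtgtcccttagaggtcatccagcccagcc
Grik4, chr8:52102014-52102313, minus strand: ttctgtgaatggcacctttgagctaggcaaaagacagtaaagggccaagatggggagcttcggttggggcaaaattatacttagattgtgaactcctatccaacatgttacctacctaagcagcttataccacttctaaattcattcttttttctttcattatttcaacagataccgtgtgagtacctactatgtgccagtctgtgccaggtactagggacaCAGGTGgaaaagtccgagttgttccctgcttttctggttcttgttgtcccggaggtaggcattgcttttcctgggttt
The Homer3 window holds 3 E boxes and the Grik4 window 1, and neither holds a GC box (GGGCGG, either strand). At least 1 E box stands in 72.1% of all 33469 promoters of that length and in 76% of the 25 entries of members, and a GC box in 33.1% and 28%. A match of letters is a description and says nothing of binding.

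Homer3 lay at 6.11, 6.42 and 7.44 in impaired, 5.96, 6.17 and 6.29 in unimpaired and 6.07, 6.30 and 6.62 in young rats, and 5 of 8 impaired arrays were above the unimpaired range. The difference was 0.33 ± 0.15 in impaired minus unimpaired, with a limma adjusted p of 0.677, and 0.20 without impaired replicate 2. A second Homer3 probe set lay at 4.10, 4.40 and 5.44 in impaired, 3.57, 3.81 and 3.90 in unimpaired and 3.26, 4.35 and 4.78 in young rats. Its impaired and unimpaired arrays did not overlap, and all 6 unimpaired arrays were under a log2 signal of 4. It was the only one of 51 member probe sets without overlap between these groups, beside 0.18% of all 12193 probe sets, and it is named here after its values were seen. This gave a difference of 0.72 ± 0.21 with a limma adjusted p of 0.586 over the probe sets, of which 0% were called. Grik4 lay at 5.41, 5.50 and 6.31 in impaired, 5.21, 5.49 and 5.56 in unimpaired and 5.38, 5.58 and 5.95 in young rats, and gave 0.15 ± 0.12 in impaired minus unimpaired, with an adjusted p of 0.839.

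Impaired replicates 2 and 5 and young replicates 4 and 6 were the 4 highest arrays for Homer3, for Grik4 and for the mean of 10 further markers of CA3 and CA2 (11 of 14 listed markers were measured, Grik4 being 1 of them). The marker mean was 8.61, 8.56, 8.43 and 8.44 on these arrays, within group ranges of 7.67 to 8.61 in impaired, 7.82 to 7.99 in unimpaired and 7.83 to 8.44 in young rats. Homer3 stood at 7.44, 6.57, 6.62 and 6.61 on them, and Grik4 at 6.31, 5.76, 5.95 and 5.88. No unimpaired array had a marker mean as high. In impaired minus unimpaired 8 of the 11 markers lay above 0 and 3 below, with a median of 0.09 and a highest of 1.23. That highest value was the largest rise of any gene in this comparison, so 1 marker made up much of the gap in the mean. With the marker mean as a covariate, the difference in impaired minus unimpaired was 0.16 ± 0.10 for Homer3, against 0.33 without it, and 0.01 ± 0.07 for Grik4, against 0.15. None of the 11 CA3 and CA2 markers was called in any comparison. Whether the dissections differed in their share of CA3 or CA2 tissue was not tested.

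**Figure D4:**
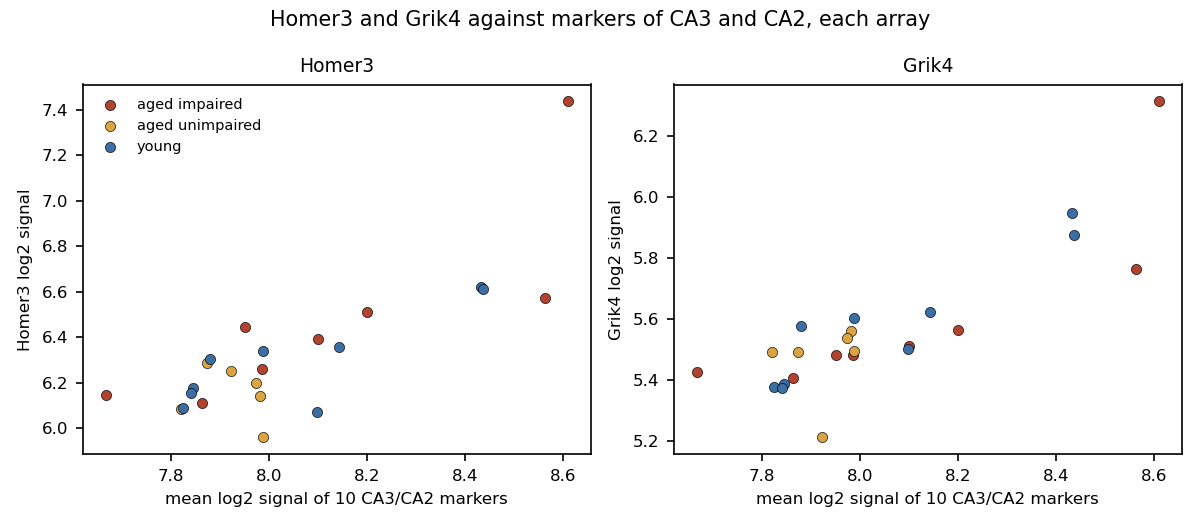
Log2 signal of Homer3 (left) and Grik4 (right) on the y axis against the mean log2 signal of 10 markers of CA3 and CA2 on the x axis, 1 point per array, coloured by group. The 4 arrays with a marker mean above 8.4, 2 impaired and 2 young, are the 4 highest for both genes.

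Spread within groups was somewhat wider among the members than across the table. The median pooled SD was 0.168 on the log2 scale for the 29 members and 0.138 for all 9076 genes. Grm5, Grm7, Dlg2, Grin2a and Grm8 each exceeded at least 96.2% of all genes, and Gria2, Grin1, Shank2, Dlgap4 and Gria3 were exceeded by most. Among the 17 members with several probe sets past the filter, all sets of a gene had the same sign for 11 in aged minus young, 12 in impaired minus young, 11 in unimpaired minus young and 9 in impaired minus unimpaired. The fit over all 12193 probe sets called 2.6% in impaired against young, 0.508% in unimpaired against young and 0% in impaired against unimpaired, with 0 of 51 member probe sets in each.

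Further genes of the glutamatergic synapse were examined in lists beside the members. In the list of other postsynaptic density proteins, 1 of 20 measured genes rose and 1 fell in impaired against young rats, beside the 3.8% called across all genes, with a list median of -0.05. Homer1, the family member whose long forms crosslink the postsynaptic density and whose short form is induced by activity, fell. It lay at 9.91, 10.12 and 10.36 in impaired, 10.26, 10.33 and 10.39 in unimpaired and 10.05, 10.42 and 10.73 in young rats, and 7 of 8 impaired arrays were below the unimpaired range. Its difference was -0.27 ± 0.07 in impaired minus young, with a limma adjusted p of 0.0381, and -0.20 ± 0.08 in impaired minus unimpaired, with an adjusted p of 0.651. All 5 Homer1 probe sets were below 0 in both, from -0.20 to -0.93 and from -0.20 to -1.59. The call was lost in 9 of 23 fits that left out 1 array (impaired replicate 2, 4, 6 or 7, or young replicate 2, 3, 7, 8 or 9), with limma adjusted p between 0.062 and 0.0871. With the CA1 pyramidal marker mean as a covariate the difference was -0.18, with an adjusted p of 0.107.

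Begain, a brain-enriched protein that binds PSD-95 family members, rose in impaired against young rats. It lay at 6.90, 7.05 and 7.59 in impaired, 6.68, 6.82 and 6.93 in unimpaired and 6.47, 6.80 and 7.05 in young rats. Its difference was 0.36 ± 0.09 in impaired minus young, with a limma adjusted p of 0.0248, and 0.32 ± 0.10 in impaired minus unimpaired, with an adjusted p of 0.562, where 7 of 8 impaired arrays exceeded the unimpaired range. The call was lost without impaired replicate 5 or 6 or young replicate 9 (limma adjusted p of 0.0582, 0.0529 and 0.0502).

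Grina, a membrane protein first described as an NMDA receptor-associated protein and not a subunit, was the only gene measured of 5 listed as other glutamate receptors, and it rose with age. It lay at 12.41, 12.48 and 12.65 in impaired, 12.46, 12.49 and 12.58 in unimpaired and 12.33, 12.38 and 12.45 in young rats, so that 11 of 14 aged arrays were above the young range. The difference in aged minus young was small, 0.12 ± 0.03, with a limma adjusted p of 0.0418. That call was lost in 13 of 23 fits that left out 1 array (impaired replicate 2, 3, 5 or 6, unimpaired replicate 3, 5 or 7, or young replicate 2, 3, 4, 6, 7 or 9), with limma adjusted p between 0.0532 and 0.0822. Among probe sets its adjusted p was 0.056.

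**Figure D5:**
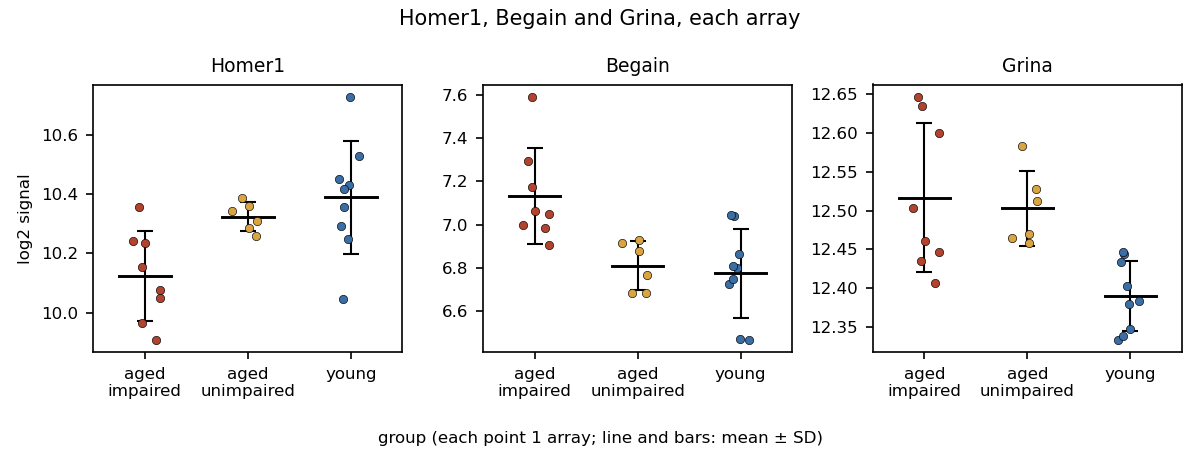
Log2 signal (y axis) of Homer1, Begain and Grina on each array, by group (x axis), with group means (lines) and SD (bars). In Homer1 7 of 8 impaired arrays lie below the unimpaired range, in Begain 7 of 8 lie above it, and in Grina 11 of 14 aged arrays exceed the young range.

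In the other 5 lists, none of the measured genes was called in any comparison: 8 AMPA receptor auxiliary proteins, 2 kainate and delta receptor genes, 13 trafficking proteins, 16 synaptic adhesion proteins and 6 genes of glutamate uptake and release. Of all genes, 3.71%, 3.8% and 0.76% were called in aged, impaired and unimpaired against young, and 0% in impaired against unimpaired. At those shares, 0 calls in lists this short say little about them. The list medians in impaired minus young were -0.02, 0.04, 0.02, -0.02 and 0.03. The smallest p in each belonged to Cacng3, Neto1, Grip2, Ncam1 and Slc17a6. Cacng3, a transmembrane AMPA receptor regulatory protein, gave 0.32 ± 0.12 in impaired minus young, with a limma adjusted p of 0.144. Grip2, which binds the tails of GluA2 and GluA3, lay at 4.24, 4.91 and 6.70 in impaired, 5.41, 5.93 and 7.28 in unimpaired and 3.98, 5.10 and 6.86 in young rats. The unimpaired arrays stood higher but overlapped both groups, with a difference of -0.98 ± 0.38 in impaired minus unimpaired and a limma adjusted p of 0.641. Neto1, an auxiliary subunit of kainate receptors, gave 0.18 ± 0.14 in impaired minus unimpaired, with an adjusted p of 0.839. Ncam1, a neural adhesion molecule, gave 0.11 ± 0.04 in impaired minus young, with an adjusted p of 0.0848. Slc17a6, which loads glutamate into vesicles, gave -0.33 ± 0.16 in impaired minus young, with an adjusted p of 0.308.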

How the data were processed

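The authors measured total RNA from CA1 on Affymetrix rat genome arrays. The deposited values were log2 signals. The submitters' processing notes name GCRMA, a method that subtracts background by probe sequence, equalizes the arrays and merges probes into 1 value per probe set. The sources used here do not give its version or settings. The table held 31099 probe sets. One aged unimpaired column, blank in every row, was not used, which left 23 arrays, used as deposited. The column of young replicate 9 stands among the aged unimpaired columns and was kept as labelled. Symbols came from the platform annotation: 20832 probe sets had 1 symbol, 436 several and 9831 none.

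Each gene took its probe set with the highest mean, kept if over log2 4 in at least 6 arrays. One limma 3.58.1 model of 3 group means (R 4.3.3) was fitted over all 9076 genes, with Benjamini-Hochberg adjustment within each of 4 comparisons, called at 0.05. Aged is the mean of both aged groups weighted by their 8 and 6 arrays. The fit was tested on simulated data. A second fit covered 12193 probe sets. The number of arrays limits the precision: the median SE of a member was 0.0696, 0.0791, 0.0858 and 0.0879 in aged against young, impaired against young, unimpaired against young and impaired against unimpaired.

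The rule for named genes showed array by array the 2 members of each family with the smallest p, any member called, and from each pathway list the genes called or else the one with the smallest p. Gria2, Grin1, Grin2b, Grik2, Grm3 and Dlg4 were added by role, after their values were seen. Members, lists and rules were chosen with earlier results of these data known. Alternatives covered the filter, probe set choice, scaling, array weights, moderation, groups fitted, a replicate block and leaving out each array; marker covariates and the fits of Dlg3, Homer1, Begain and Grina were added after seeing the data. Figures used matplotlib 3.10.9 in Python 3.11.15. No batch or date was given, so none was modelled.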

Additional observations from a re-analysis of the deposited data

Results flagged for a closer look

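In 13 of 87 groups of member values, 1 array stood far from its group by Dixon's test, where chance alone marks about 1 group in 20 (4.35 of 87). Apart from the differences of Grin2c and Homer3 given above without 1 such array, none was weighed further. Among receptors, Gria3 stood at 12.21 in unimpaired replicate 4 (nearest other 12.05), Grin2c at 10.36 in impaired replicate 6, and Grm7 at 3.48 in young replicate 9 (nearest other 4.56). Kainate subunit Grik4 stood at 6.31 in impaired replicate 2 and at 5.21 in unimpaired replicate 1, and Grik5 at 8.59 in young replicate 7. Grm8 had an array apart in every group, with 7.27 in impaired replicate 7, 6.91 in unimpaired replicate 1 and 7.69 in young replicate 7, each the highest of its group. Among scaffolds, Dlgap1 stood at 11.27 in impaired replicate 4, Shank1 at 12.98 in unimpaired replicate 2, Nlgn3 at 5.53 in impaired replicate 7 and Homer3 at 7.44 in impaired replicate 2. No member moved one way in every impaired array and the other way in every unimpaired array, relative to young.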

How the results depend on the processing

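The count of 0 members called held in all 4 comparisons under every alternative tried and in all 23 fits that left out 1 array. Signs of uncalled members did turn, for up to 9 of 29 with the CA1 pyramidal marker mean as a covariate in impaired minus unimpaired. Counts over all genes moved by over 1.5 times with a replicate block (159 in aged, 165 in impaired and 31 in unimpaired against young, and 1 in impaired against unimpaired, where 337, 345, 69 and 0 were called), with array weights (149 in unimpaired against young) and when the fit held the compared groups alone (1 in impaired against unimpaired). Leaving out 1 array gave 224 to 407 (lowest without young replicate 2), 228 to 439 (lowest without impaired replicate 6), 35 to 86 (lowest without unimpaired replicate 4) and 0 calls. At an unadjusted p under 0.05, 629 genes passed in impaired against unimpaired.

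The replicate numbers did not pair the arrays: of 20 pairs of arrays with the same number, 1 had deviations correlated above 0.1 (median -0.0519, range -0.267 to 0.116), and 1 of 22 arrays correlated best with its own number. With the replicate block, limma gave adjusted p of 0.0927 for Homer1, 0.0724 for Begain, 0.178 for Grina and 0.132 for the Dlg3 probe set. Homer1 also lost its call with no filter (0.0593), with the mean of its probe sets (-0.50, 0.158) and in the fit of the compared groups alone (0.0946), where Begain gave 0.0613. Grina gave 0.0824 after arrays were centred on their medians. The Dlg3 probe set in impaired minus young (0.0502) passed with a stricter filter (0.0472), array weights (0.0373), the CA3 and CA2 covariate (0.035), and without impaired replicate 8 (0.0092), unimpaired replicate 2 (0.0476), young replicate 7 (0.0448) or young replicate 8 (0.0434). The cause of these changes was not tested. Genes near the log2 signal of 4, such as Dlg2 and Grm7, are limited by signal over background.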
